A study of Mus musculus with 53 samples.

Results

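Fos, Fosb, Jun, Junb, Jund, Atf3, Ier2, Dusp1 and Zfp36 are immediate early genes, which cells transcribe within minutes of a stimulus without first making new protein. They were picked by symbol from the deposited expression table of single T1 pre-HSCs, type 1 precursors of haematopoietic stem cells, and all 9 were found among its 14833 genes. They were sorted from E11 mouse embryos, from the aorta-gonad-mesonephros region, where stem cells of the adult blood system first form. A set of 12 cells carried the genotype mH19 delta_DMR/+, a deletion of the differentially methylated region at H19, and is called KO here. The control set carried mH19 flDMR/+, a floxed form of the same region, and the labels call it wildtype. Both sets thus carried an engineered allele over a + allele. The labels name no Cre driver and do not tie cells to embryos or litters, so each genotype counts as 1 sample and no p-value between genotypes is given. All SDs and ranges below are over cells, and intervals of shares cover counting error only.

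Per the labels' protocols, sorted cells were kept on ice until lysis and were moved singly by mouth pipette into lysis buffer. Of 10 wildtype cells, 9 were used. Around the rows of these genes the columns of all 21 cells used were in step with each other in 189 of 189 windows of 500 rows, whereas the column of wildtype cell 19 was in step in 1 of 9, so that its values may belong to neighbouring genes. Between cells, 0 of 1169 pairs of values in these rows shared 5 or more identical significant digits. H19, beside the deleted region, was at 0 to 186 RPKM in KO cells and at 231 to 1261 RPKM in wildtype cells, with no overlap. RPKM scales the reads of a gene to its length and to the reads of the library. The number of reads behind a value is unknown, and a gene was called detected in a cell at 1 RPKM or more. The number of genes detected per cell was 1517 to 8408 in KO and 2067 to 5716 in wildtype cells.

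The protein products of these genes form a signalling relay with its own brakes. Fos and Fosb proteins bind DNA only as dimers with a Jun family partner, and these dimers, with related proteins such as Atf3, make up the transcription factor AP-1. Jun family proteins can also pair among themselves. Mitogen-activated protein (MAP) kinases switch the genes on through serum response factor, which binds the CArG box, and through factors that bind the cyclic AMP response element (CRE) or AP-1 sites (TREs). Dusp1 removes the activating phosphates from MAP kinases, and Zfp36 marks AU-rich mRNAs, those of immediate early genes among them, for decay. The same genes are known to be switched on while tissue is dissociated and cells are sorted, so that in isolated cells they can record handling as well as signalling in the embryo.

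The promoters were searched for fixed spellings of control elements that such genes are known for. RefSeq promoter sequences of build GRCm38.p6 were matched for 8 of the 9 genes, all but Ier2, and the 250 bases ahead of the transcription start were read on both strands. A CArG box was found in 1.47% of 32851 promoters, the CRE (TGACGTCA) in 1.55%, the TRE (TGACTCA) in 4.46%, its variant TGACATCA in 2.93% and the TATA box (TATAAA) in 12.4%. Each of Fos, Jun, Zfp36 and Dusp1 held 1 of them, and their sequences are shown 5′ to 3′ up to the base before the start, with the match in capitals.

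Fos, chr12:85473640-85473889, plus strand: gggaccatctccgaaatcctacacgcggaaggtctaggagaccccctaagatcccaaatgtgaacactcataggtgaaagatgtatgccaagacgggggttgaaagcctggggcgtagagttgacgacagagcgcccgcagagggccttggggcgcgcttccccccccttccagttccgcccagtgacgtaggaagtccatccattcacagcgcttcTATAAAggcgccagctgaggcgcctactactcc

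Jun, chr4:95052223-95052472, minus strand: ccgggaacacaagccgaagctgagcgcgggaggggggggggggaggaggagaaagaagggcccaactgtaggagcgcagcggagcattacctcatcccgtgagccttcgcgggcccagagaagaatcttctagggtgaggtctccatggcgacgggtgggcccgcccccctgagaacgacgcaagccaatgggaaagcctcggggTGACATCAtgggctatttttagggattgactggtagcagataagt

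Zfp36, chr7:28379229-28379478, minus strand: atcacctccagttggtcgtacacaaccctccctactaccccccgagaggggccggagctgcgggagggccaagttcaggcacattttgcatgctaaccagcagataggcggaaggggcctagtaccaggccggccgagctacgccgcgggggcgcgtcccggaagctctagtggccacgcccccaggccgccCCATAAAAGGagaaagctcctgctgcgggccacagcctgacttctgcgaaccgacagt

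Dusp1, chr17:26508473-26508722, minus strand: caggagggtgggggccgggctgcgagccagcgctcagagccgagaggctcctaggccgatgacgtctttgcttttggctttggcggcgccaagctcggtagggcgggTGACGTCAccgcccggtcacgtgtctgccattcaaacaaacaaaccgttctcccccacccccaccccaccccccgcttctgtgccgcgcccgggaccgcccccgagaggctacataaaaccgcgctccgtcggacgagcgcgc

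The capitals mark a TATA box starting 33 bases ahead of the start in Fos, TGACATCA 45 bases ahead in Jun, a CArG box 58 bases ahead in Zfp36 and a CRE 143 bases ahead in Dusp1. No 2 of the 8 promoters held the same one of these letters in this window. Fosb, Junb, Jund and Atf3 held none of them there. A match is a run of letters and not a measured site. Elements farther ahead or spelled otherwise were not sought, so a promoter without a match may still hold such an element.

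Among the 9 genes Ier2 was in a class of its own. Its mRNA was found in each of the 12 KO and 9 wildtype cells, with a mean log2(RPKM + 1) of 9.09 ± 1.06 (SD over 21 cells), above Junb, the next gene, in 21 of 21 cells. The difference to Junb was 3.32 against an SD of 2.47 for the difference within cells. Ier2 was also the steadiest member, since only 5.17% of the 3867 genes compared between genotypes had as low an SD or a lower one, and 95.1% had as low a mean or a lower one. Below it the order by mean level was Junb at 5.77, Jun at 5.61, Fos at 5.41, Dusp1 at 4.47, Atf3 at 3.65, Fosb at 2.51, Jund at 1.81 and Zfp36 at 1.44. Neighbours in that order differed by 0.16 to 1.14 on the same scale, each less than the SD of their difference within cells. That SD is a spread over cells and not the error of a mean. The gene ranked higher was above its neighbour in 9 to 14 of 21 cells, so the order of neighbours varied from cell to cell. Genes farther apart in the order were not compared in this way. RPKM is scaled to length, but whether the genes were captured and read equally well is unknown. The order is thus one of RPKM values and not of transcript numbers.

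**Figure D1:**
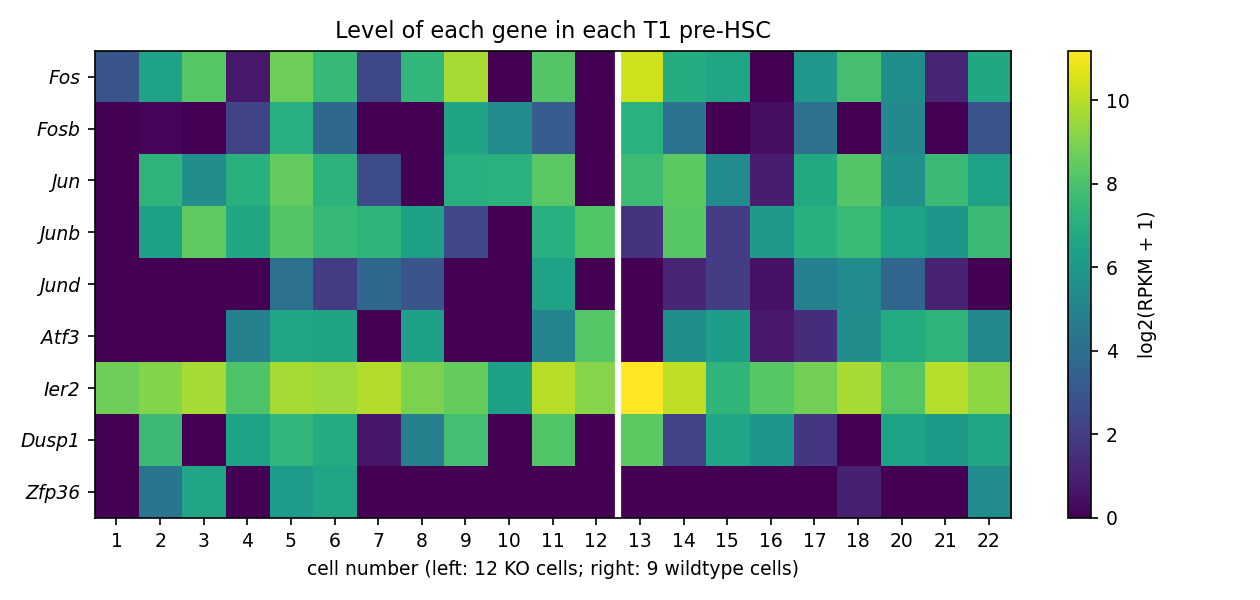
Level of each of the 9 genes (rows) in each T1 pre-HSC (columns, by cell number, KO left and wildtype right of the white line), as log2(RPKM + 1) in colour. Ier2 is bright in all 21 cells, whereas each of the other genes is near 0 in some cells and higher in others.

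Of the Fos family, Fos, the prototype partner of Jun, was detected in 9 of the 12 KO and 8 of the 9 wildtype cells. Its lowest, median and highest values were 0, 128 and 837 RPKM in KO cells and 0, 98.7 and 1322 RPKM in wildtype cells. The groups thus overlapped over nearly their whole span, and each held 1 cell far above the rest, KO cell 9 at 837 and wildtype cell 13 at 1322 RPKM, where the next highest were at 416 and 233. Fosb, a close relative of Fos, was detected in 6 of the 12 KO and 5 of the 9 wildtype cells. Its medians were 1.98 and 6.44 RPKM and its maxima 133 and 141 RPKM. Wildtype cell 13 was the highest of its group for Fosb too, and KO cells 5 and 9 were the highest of theirs.

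The Jun family had a member in 11 of the 12 KO and 9 of the 9 wildtype cells. Jun, the founding member, spanned 0 to 364 RPKM with a median of 136 in KO cells and 0.787 to 334 RPKM with a median of 110 in wildtype cells. KO cells 1, 8 and 12 were listed at 0, and wildtype cell 16 was the lowest of its group by a wide gap. Junb, which can hold back Jun activity, spanned 0 to 349 RPKM with a median of 119 in KO cells, and 2.096 to 307 RPKM with a median of 88.7 in wildtype cells. Jund, the family member usually described as constitutive, was the lowest of the 3, with maxima of 85.8 and 40.7 RPKM and detection in 5 of the 12 KO and 6 of the 9 wildtype cells. For each of the 3 genes the ranges of the genotypes overlapped.

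A Fos family and a Jun family mRNA were detected together in 10 of the 12 KO cells (83.3%, exact 95% interval 51.6 to 97.9%) and 8 of the 9 wildtype cells (88.9%, 51.8 to 99.7%). In the remaining cells the mRNA of 1 side of the dimer was not detected. KO cell 12 and wildtype cell 16 had no Fos family mRNA at 1 RPKM, and KO cell 1 had no Jun family mRNA. KO cells 1 and 12 had the fewest genes detected of all cells used, 1517 and 1796. Wildtype cell 16 had Fosb at 0.331 RPKM, below the threshold. As a share of the summed RPKM of the 5 Fos and Jun family genes, which does not depend on how a cell was scaled, the Fos family made up a median of 35.9% in KO and 28.1% in wildtype cells. Within each genotype that share spanned almost the full range, 0 to 100% and 0.484 to 87.6%. The Fos family was the larger part in KO cells 1, 8 and 9 and in wildtype cells 13 and 15.

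Atf3, a stress-induced member of the ATF family, was detected in 6 of the 12 KO and 7 of the 9 wildtype cells. Its lowest, median and highest values were 0, 14.8 and 297 RPKM in the KO set and 0, 43.2 and 153 RPKM in the wildtype set. The highest value of all stood in KO cell 12, a cell in which Fos, Fosb, Jun, Jund, Dusp1 and Zfp36 were all listed at 0 and Junb was at 287 RPKM. Ier2, a small nuclear protein whose molecular role is less well known, spanned 81.6 to 1029 RPKM with a median of 561 in KO cells and 158 to 2336 RPKM with a median of 624.9 in wildtype cells. It was the highest of the 9 genes in 10 of the 12 KO and 9 of the 9 wildtype cells. The exceptions were KO cell 9, led by Fos, and KO cell 10, led by Jun.

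Of the genes that end the response, Dusp1 was detected in 7 of the 12 KO and 8 of the 9 wildtype cells, with medians of 59.1 and 66.8 RPKM and maxima of 283 and 332 RPKM. Fos and Dusp1 were detected together in 6 of the 12 KO and 7 of the 9 wildtype cells. Fos stood without Dusp1 in 3 KO cells and in 1 wildtype cell. Zfp36 was the rarest of the set. It was detected in KO cells 2, 3, 5 and 6, at 19.4, 99.0, 70.2 and 94.7 RPKM, and in wildtype cell 22, at 42.3 RPKM, which is 4 of 12 (33.3%, 9.92 to 65.1%) and 1 of 9 (11.1%, 0.281 to 48.2%). The intervals of these shares overlap. KO cells 2, 5 and 6 were among the 4 KO cells with the most genes detected, with 5994, 8408 and 6215 genes.

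**Figure D2:**
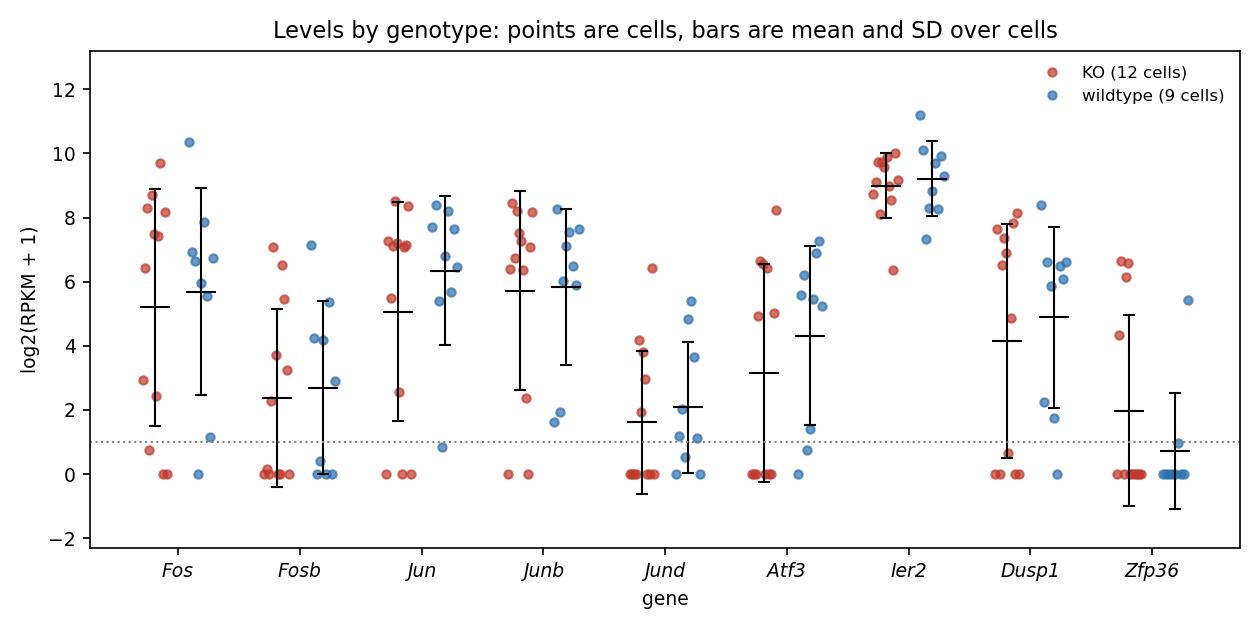
Level of each gene as log2(RPKM + 1) in each KO cell (red, 12 cells) and wildtype cell (blue, 9 cells), with black bars for the mean and SD over cells and a dotted line at 1 RPKM. For all 9 genes the points of the 2 genotypes overlap, and only Ier2 has no cell near 0.

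The comparison of KO with wildtype cells asks whether deleting the H19 control region changes this response in T1 pre-HSCs. No gene of the 9 separated the genotypes: 0 of 9 had non-overlapping groups, against 0.0517% of the 3867 genes compared. A gene was compared if 50% or more of the KO cells, or of the wildtype cells, detected it. By the difference of mean log2(RPKM + 1), KO minus wildtype, 8 genes lay lower and 1 lay higher in KO cells, where 64.3% of all compared genes lay lower. That split depended on the summary: by the log2 ratio of mean RPKM 5 of the 9 lay higher, namely Zfp36 at 2.08, Junb at 0.26, Dusp1 at 0.15, Jund at 0.12 and Atf3 at 0.0089. By the difference of medians over cells 3 lay higher, Junb at 0.41, Jun at 0.30 and Fos at 0.29, and Zfp36 was at 0. The median of the 9 differences was -0.47, close to the -0.36 of all compared genes, but it was 0.0089 by the log2 ratio of mean RPKM. Of the 9 genes, 8 passed the detection filter, all but Zfp36, and all 9 are counted here.

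Jun, at -1.28, and Atf3, at -1.16, were the 2 genes lower by at least 1, a size reached in that direction by 28.0% of the compared genes. Zfp36, at 1.27, was the 1 gene higher by at least 1, a size reached by 11.4% of the compared genes. Since Zfp36 did not pass the filter, its background is also given over all 14833 genes, of which 5.85% lay higher and 10.6% lower by at least 1. Mean levels were 5.06 ± 3.41 in KO and 6.34 ± 2.32 in wildtype cells for Jun, 3.15 ± 3.39 and 4.31 ± 2.79 for Atf3, and 1.98 ± 2.97 and 0.71 ± 1.80 for Zfp36 (SD over 12 and 9 cells), so each difference is smaller than the SD in either genotype. The others were Dusp1 at -0.74, Fos at -0.49, Jund at -0.47, Fosb at -0.32, Ier2 at -0.22 and Junb at -0.12, all within the SDs. These shares of 2 and 1 in 9 are near the background, and with 1 sample a genotype no difference could be tested.

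Single cells decided which genes passed that size. Without KO cell 1 the number lower by at least 1 was 0, with Jun at -0.82 and Atf3 at -0.88. It was 1 without any one of KO cells 3, 7, 8, 10 and 12 or wildtype cells 15 and 20, and 3 without any one of KO cells 5 and 11 or wildtype cells 14, 16, 17 and 18. Zfp36 lay at 0.84 without KO cell 3, 0.89 without KO cell 5 and 0.85 without KO cell 6. Fos turned to 0.091 without wildtype cell 13. Fosb turned to 0.24 without wildtype cell 13 and to 0.011 without wildtype cell 20, and Ier2 turned to 0.030 without wildtype cell 13 and 0.021 without KO cell 10. Junb changed sign without any one of KO cells 1, 9 and 10 or wildtype cells 14, 17, 18 and 22, with values of up to 0.39.

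Part of the lower means came from cells with no detection. Over the detecting cells alone, 6 of the 9 differences were above 0. The share of all compared genes above 0 by this measure was not computed, so that count has no background. Dusp1, for example, had a mean log2(RPKM + 1) of 7.03 in the 7 KO cells and 5.51 in the 8 wildtype cells that detected it, a difference of 1.53, against -0.74 over all cells. Junb differed by 1.02, Atf3 by 0.86, Jund by 0.83, Fos by 0.44 and Zfp36 by 0.50 over detecting cells, while Jun was at -0.28, Ier2 at -0.22 and Fosb at -0.050. In the 5 KO cells whose number of detected genes lay inside the wildtype range, between 2260 and 3767 and thus below the wildtype median of 4176, Dusp1 was at -2.16, Atf3 at -2.02 and Jun at -1.63 against all wildtype cells, while Jund was at 0.56 and Zfp36 at 0.62. In that subset the median of all 3566 genes compared was -0.64, and 41.4% of them lay lower by at least 1, against 3 of the 9. The values over detecting cells rest on cells selected by the same gene's level and carry no test.

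In KO cells, but hardly in wildtype cells, how many of the 9 genes a cell showed moved with how many genes it showed at all. KO cells had 2 to 9 of them detected, with a median of 6, and wildtype cells had 3 to 8, with a median of 7. KO cells 5 and 6 had all 9, and KO cell 1 had 2, Fos and Ier2. Over the 12 KO cells Spearman's rho between the number detected and the genes detected in the cell was 0.71, and over the 9 wildtype cells it was 0.11. KO cells 1, 12 and 9, with the fewest genes of any cell used, had 2, 3 and 6 of the set, and KO cell 5, with the most genes, had 9. Wildtype cell 16 had the fewest of the set among wildtype cells, 3 of the 9 genes among 4176 detected genes. These cells share no known source, and depth per cell is unknown, so its part in the result was not tested.

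**Figure D3:**
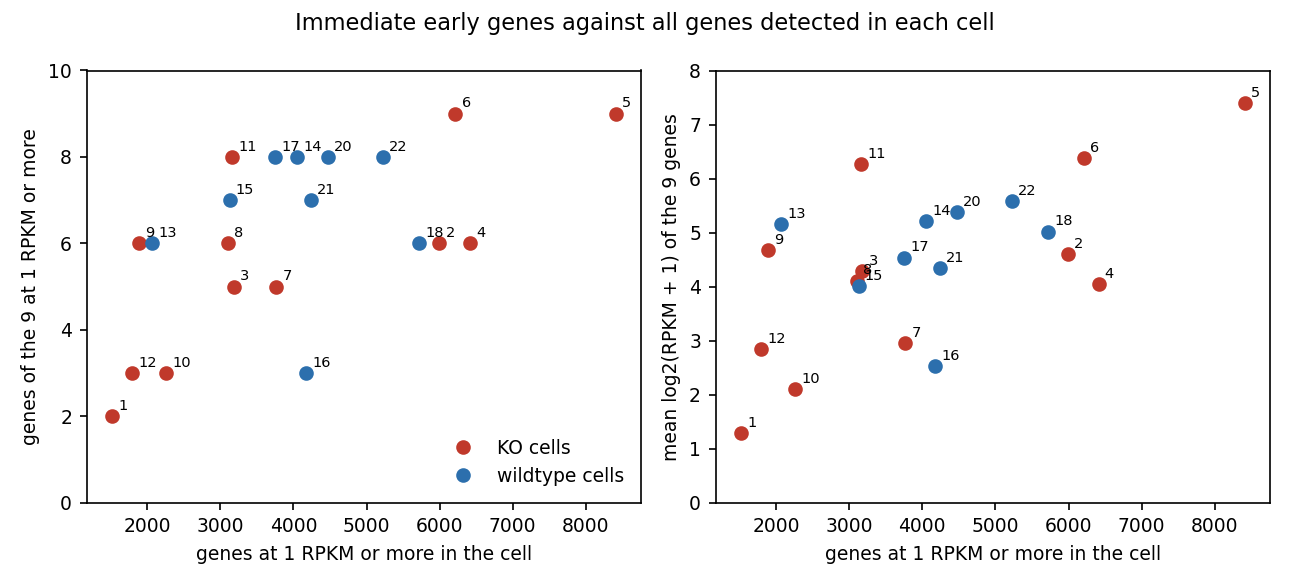
Number of the 9 genes detected at 1 RPKM or more (left) and their mean log2(RPKM + 1) (right) against all genes detected in the cell, with cells numbered. KO cells run from 2 of 9 in cell 1 to 9 of 9 in cells 5 and 6, and wildtype cell 16 lies below the other wildtype cells with 3 of 9.

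Correlations between the 9 genes were mostly positive in KO cells, with 33 of 36 pairs above 0 against 76.4% of all gene pairs. In wildtype cells 17 of 28 were above 0, against 57.8%. In KO cells the median Spearman's rho over the 36 pairs was 0.34, where the median over pairs of all 5491 genes detected in 33.3% or more of these cells was 0.24. In wildtype cells it was 0.092 over 28 pairs, Zfp36 being left out as too rare, against 0.075 over pairs of 5569 genes. A rho of 0.5 or more was reached by 7 of 36 pairs in KO cells (19.4%, against 20.3% of all gene pairs) and by 3 of 28 in wildtype cells (10.7%, against 12.3%). With the number of detected genes held constant by partial correlation, the medians were 0.17 in KO and 0.12 in wildtype cells, against 0.010 and 0.013 for all gene pairs. The 5 KO cells inside the wildtype range of detected genes gave a median of 0.11. All of these are descriptions over 12, 9 or fewer cells, and no difference between genotypes was tested.

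In KO cells the highest were Fosb with Jun at 0.77, Junb with Ier2 at 0.73, Jund with Ier2 at 0.68, Jun with Dusp1 at 0.68, Junb with Zfp36 at 0.63, Fos with Dusp1 at 0.60 and Fosb with Dusp1 at 0.59. In wildtype cells they were Jun with Ier2 at 0.85, Fos with Jun at 0.68 and Fos with Ier2 at 0.57. Of the 28 pairs measured in both, 15 were above 0 in both, 12 differed in sign and 0 reached 0.5 in both. For Dusp1, the rho with Fos was 0.60 in KO and 0.13 in wildtype cells, whereas with Jun it was 0.68 in KO and -0.32 in wildtype cells, and with Jund it was 0.44 and -0.73. Fos with Jun, the textbook pair, stood at 0.38 in KO and 0.68 in wildtype cells, and both genes were detected together in 7 of 12 and 8 of 9 cells.

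**Figure D4:**
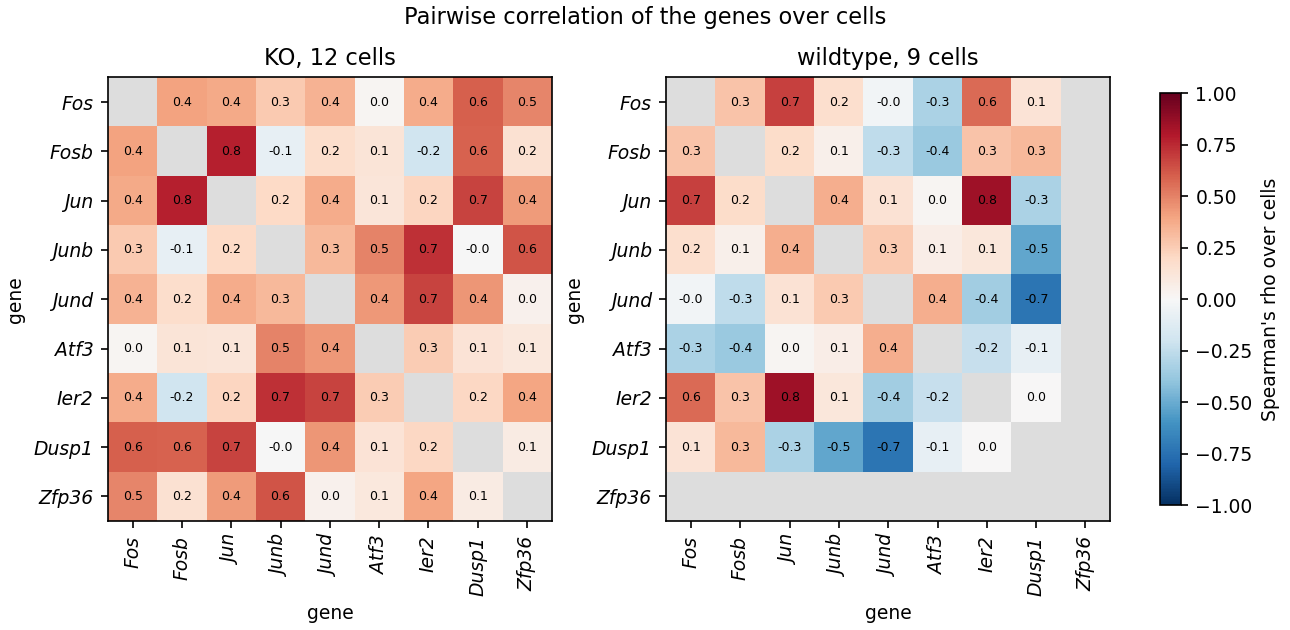
Spearman's rho over cells for each pair of genes in 12 KO cells (left) and 9 wildtype cells (right), from -1 (blue) to 1 (red), with grey for the diagonal and for Zfp36 in wildtype cells, where it was detected in 1 cell. Fosb with Jun at 0.77 leads in KO cells and Jun with Ier2 at 0.85 in wildtype cells.

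Among cells with high levels of these genes, some held few markers of the labelled type and others held many. The 11 pre-HSC and endothelial markers, among them Cdh5, Pecam1, Kit and Procr, summed to 3.95 to 1539 RPKM among KO cells and 4.88 to 1334 RPKM among wildtype cells. The 8 mesenchymal markers, among them Col1a1 and Col3a1, summed to 0.00364 to 1010 RPKM among KO cells and 0 to 254 RPKM among wildtype cells. In KO cells 1, 3, 9 and 11 and wildtype cells 13 and 14 the mesenchymal sum was the larger of the 2. In KO cell 3 both sums were low, the mesenchymal at 10.8 and the other at 3.95 RPKM. Wildtype cell 20 had a mesenchymal sum of 118 RPKM but a larger pre-HSC and endothelial sum, 252 RPKM. Pdgfra, a defining mesenchymal receptor, was at most at 0.598 RPKM in any cell used. Wildtype cell 13 had the highest Fos and Ier2 of all cells used, and KO cell 11 the highest Ier2 among KO cells and, with KO cell 9, the highest Dusp1. KO cells 5 and 6 had the highest mean log2(RPKM + 1) of the 9 genes, 7.39 and 6.39. Their pre-HSC and endothelial sums were 1539 and 1248 RPKM, and their mesenchymal sums were 11.3 and 24.0 RPKM. KO cell 1 had the lowest mean of all cells used, 1.29. Over all 21 cells Spearman's rho between the mean level of the 9 genes and the mesenchymal sum was 0.53. With the pre-HSC and endothelial sum it was 0.13. Within genotypes the rho with the mesenchymal sum was 0.57 in KO and 0.52 in wildtype cells. With the pre-HSC and endothelial sum the signs were opposite, 0.38 in KO and -0.38 in wildtype cells. Without the 6 cells with the larger mesenchymal sum, the median of the 9 differences was -0.54. Of the 9 genes, 0 lay lower and 1 lay higher by at least 1. Of the 5178 genes then compared 20.4% lay lower and 22.2% higher by at least 1, and their median was 0.060. Jun was then at -0.88, Atf3 at -0.65 and Zfp36 at 1.22.

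The other marker lists were summed in the same way. The 6 macrophage markers listed summed to at most 700 RPKM among KO and 1951 RPKM among wildtype cells, in KO cell 2 and wildtype cell 18, and Lyz2 alone reached these values. C1qb was at 0 in all cells used and Emr1 was at most at 0.0402 RPKM, whereas Mrc1 reached 130 RPKM in 1 KO cell. The 3 granulocyte markers listed summed to at most 401 RPKM among KO and 122 RPKM among wildtype cells, in KO cell 2 and wildtype cell 20. KO cell 2 also had the highest sum of the erythroid markers, 148 RPKM. The 2 epithelial markers summed to at most 479 and 520 RPKM, in KO cell 12 and wildtype cell 17, both from Krt18 alone, with Krt8 at 0 in the wildtype cells. Of the 2 neural markers listed Stmn2 reached 1094 RPKM in KO cell 7. The 6 erythroid markers stayed at or below 148 RPKM, and Pf4, a platelet gene, and Sox10, a neural crest gene, were at 0 in all cells used, while Gp9, the other platelet marker listed, reached 27.6 RPKM in KO cell 5. Mitochondrial genes took 3.79 to 9.61% of the total in KO and 4.60 to 9.56% in wildtype cells, and the rho of that share with the mean level of the 9 genes was -0.28 over 21 cells. The part of these markers and shares in the levels of the 9 genes was not tested.

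Genes around AP-1 were followed in the same way, and their counts stand against the 28.0% of all compared genes that lay lower and the 11.4% that lay higher by at least 1. Of 13 other AP-1 subunits 12 were listed and 2 were detected widely enough to compare, Fosl2, a Fos relative, at -1.31 and Atf2, which pairs with Jun, at -1.18, both lower by at least 1. Of 40 other immediate early genes 14 were compared, with a median difference of -0.41, 3 lower and 1 higher by at least 1. These were Klf10, a zinc finger repressor, at -1.42, Ppp1r15a, which restores translation after stress, at -1.26, Cyr61, a secreted matrix protein, at -1.02 and Ier3, a survival factor, at 1.36. The list median lay beside that of all compared genes. Egr1, a zinc finger immediate early gene whose row stands among 24 rows ahead of the alphabetical order and which was therefore not a member, was at -2.11, with medians of 10.8 RPKM in KO cells and 73.4 RPKM in wildtype cells, and its ranges overlapped.

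Among the MAP kinase genes that drive the response, 8 of 28 were compared, and 0 lay higher by at least 1. Elk3, a serum response factor partner, had the largest difference, at -2.43, with detection in 7 of the 12 KO and 8 of the 9 wildtype cells and medians of 1.40 and 57.9 RPKM. Braf, a kinase of the cascade, was at 0.90. Of 13 feedback genes Dusp6 at -0.62 and Dusp3 at -0.30 were compared. Of 6 AU-rich RNA binding genes 5 were compared and 3 lay lower by at least 1, against 28.0% of all compared genes. The relatives of Zfp36 lay on the other side from it, with Zfp36l1 at -1.997 and Zfp36l2 at -1.55, where Zfp36 was at 1.27. Elavl1, which stabilises AU-rich mRNAs, was at -1.25.

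Of 8 heat shock genes compared, 7 had a lower mean in KO cells, where 64.3% of all compared genes did. By at least 1, 2 were lower and 1 higher by at least 1, namely Dnajb1, an inducible co-chaperone, at -2.87, Hspa5, the endoplasmic reticulum chaperone, at -1.11, and Hsp90ab1, a constitutive chaperone, at 1.00. Their median difference was -0.52. Of the integrated stress genes Xbp1 at -1.60 and Ddit3 at -1.26 were compared, and of 8 AP-1 targets Plaur, the urokinase receptor, at -1.15, Cd44 at 0.68 and Vim at -0.55. For Dnajb1 the SD over cells was 3.19 in KO and 2.82 in wildtype cells, about the size of its difference.

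**Figure D5:**
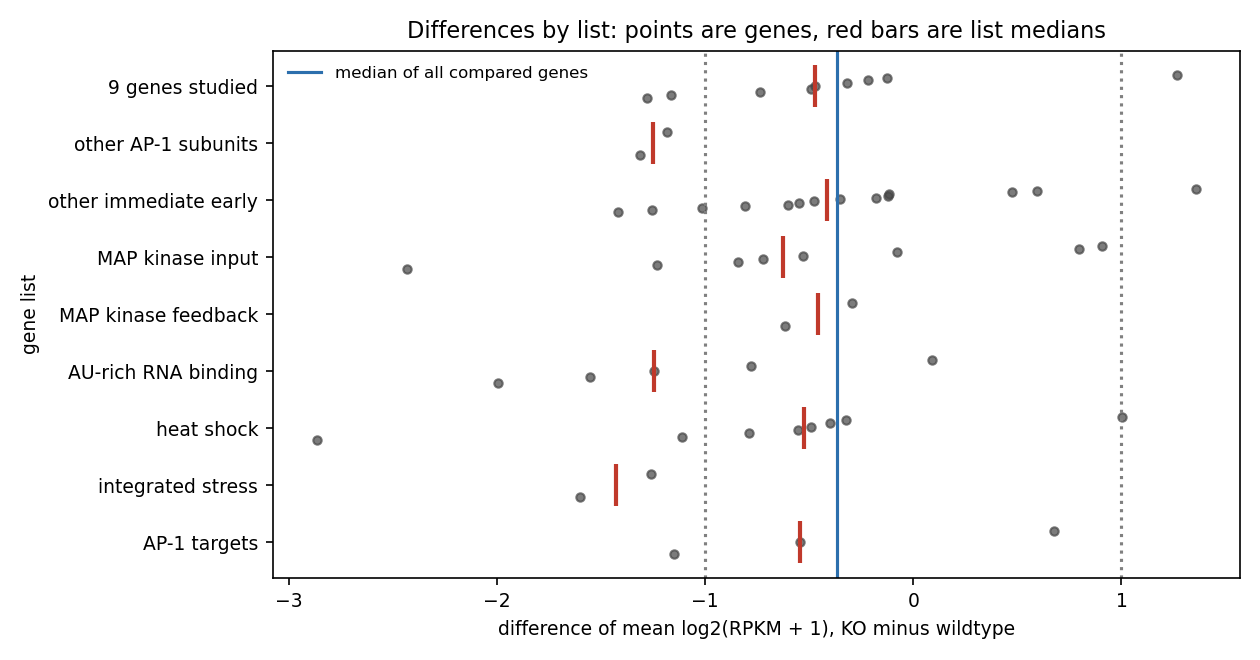
Difference of mean log2(RPKM + 1), KO minus wildtype, for the 9 genes and for each compared gene of 8 related lists, with red bars for list medians, a blue line for the median of all compared genes at -0.36 and dotted lines at -1 and 1. The 9 genes lie between -1.28 and 1.27, around the blue line.

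The genes whose levels most resembled the mean of the 9 over the 21 cells were sought among the compared genes. By Spearman's rho they were Dzip3, a ubiquitin ligase, at 0.87, Fkbp8, a mitochondrial immunophilin, at 0.77, Api5, an inhibitor of apoptosis, at 0.76, Cul3, a ubiquitin ligase scaffold, at 0.76, Irf2bp2, a transcriptional corepressor, at 0.75, Mtx2, a mitochondrial outer membrane protein, at 0.73, Bad, a pro-apoptotic protein, at 0.73, and Sgta, a co-chaperone, at 0.72. They are the extremes of 3867 genes ranked over 21 cells, in which the number of detected genes also varies. Their own rho with the number of detected genes was 0.45 to 0.74. Dzip3 was found in 2 KO cells and 5 wildtype cells, and Api5, the most widely detected of them, in 6 and 7.

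A transcript that overlaps Jun limits how its values can be read. Jun lies on chromosome 4 at 95049036 to 95052222 in GRCm38.p6, and Junos, a long non-coding RNA listed with its position in the table of the adult cells, shares 690 bases with it. The labels do not say that reads were counted by strand, so reads of Jun and Junos in the overlap cannot be told apart. In the T1 pre-HSC table Junos reached 1 RPKM in 1 of 12 KO cells, cell 2 at 5.15 RPKM, and in 2 of 9 wildtype cells, at most at 2.16 RPKM in cell 14, where Jun was at 153 and 334 RPKM. The other members lie on chromosome 12 (Fos), 7 (Fosb and Zfp36), 8 (Junb, Jund and Ier2), 1 (Atf3) and 17 (Dusp1), and no other gene of the RefSeq table used overlapped any of the 9.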

How the data were processed

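The authors deposited RPKM per gene and cell for the T1 pre-HSCs and an unlabelled measure for the adult HSCs, taken here as FPKM because the submitters' processing notes name Cufflinks 2.1.0 on build mm10. How reads were aligned, the gene models and whether strand was used are not stated in the labels. Columns were assigned to cells by number. In the adult table, 2 columns share a cell name and were not used. The 5 methylation libraries were not analysed here. Wildtype cell 19 was left out after its values were correlated, at offsets of up to 5 rows, with the mean of the cells used. RPKM was used as log2(RPKM + 1), with a pseudocount of 1, which understates changes of low genes, and a gene was compared if 50% or more of the cells of 1 genotype had 1 RPKM or more. A difference of 1 or more in size is a rule of size, not a test. Shares carry exact Clopper-Pearson 95% intervals. Correlations were computed within genotypes for genes detected in 33.3% or more of the cells. Named genes are the 9 members, up to 3 compared genes per list with the largest differences, H19 and Egr1 as reference genes, and the 8 genes most like the mean of the members; Cyr61, Junos and the single marker genes were chosen after their values were seen. The members and lists were chosen with earlier results of these data known. Scripts were tested on simulated data and used Python with numpy, pandas and scipy. Alternatives were other pseudocounts, filters, scalings, summaries, detection thresholds, correlation measures and sets of cells. The run without the cells whose mesenchymal sum exceeded their pre-HSC and endothelial sum was added after the data were seen. A gene of the MAP kinase list is not reported here.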

Additional observations from a re-analysis of the deposited data

Results flagged for a closer look

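Of 11 sets of wildtype values checked for a cell far from the rest, 3 stood out. The check picks about 1 in 20 sets by chance if values are normally distributed. Several of these sets hold values listed at 0, so that rate need not hold here and 3 of 11 cannot be set against it. Jun in wildtype cell 16 had a log2(RPKM + 1) of 0.84, far below the other wildtype cells. The same cell had 3 of the 9 genes detected, fewer than any other wildtype cell, so these are not separate events. Zfp36 in wildtype cell 22 had a log2(RPKM + 1) of 5.44, while 7 of 9 wildtype cells were listed at 0.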

How the results depend on the processing

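The median of the 9 differences, -0.47, was -0.16 with medians over cells and -0.17 with a pseudocount of 10. With the ratio of mean RPKM it was 0.0089, so that its direction did not hold there. The counts of genes past 1 in size did not hold either. Lower by at least 1 were 2 genes, but 4 with a pseudocount of 0.1. The number was 0 with a pseudocount of 10, with the ratio of mean RPKM or without the cells with the larger mesenchymal sum. Higher by at least 1 was 1 gene, Zfp36, but 0 with a pseudocount of 10, medians over cells or cells within the shared range of detected genes. It was also 0 with a filter at 5 RPKM, where only genes that passed were counted. Zfp36 fails the main filter too, and of the 8 genes that pass it 0 lay higher by at least 1. Jun reversed to 0.30 with medians over cells and Atf3 to 0.0089 with the ratio of mean RPKM. Genes with smaller differences changed sign too, Fos and Junb with medians and Junb, Jund and Dusp1 with the ratio. Junb also lay at 0.12 with a pseudocount of 10 and at 0.46 with wildtype cell 19. Jund lay at 0.56 in cells within the shared range of detected genes. Without the 6 cells with the larger mesenchymal sum, Fosb lay at 0.50, Junb at 0.24 and Ier2 at 0.065. The cause was not tested. Leaving out each cell in turn gave 0 to 3 genes lower and 0 to 1 higher, a median difference of -0.76 to -0.22, and median rho of 0.22 to 0.38 in KO and 0.018 to 0.14 in wildtype cells. Rescaling each cell to an equal median moved the median of all genes by 0.11. No paired analysis was possible because KO cells are numbered 1 to 12 and wildtype cells 13 to 22, so that they share no number. Depth is unknown, so a gene listed at 0 may have been missed.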

Other observations

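None of the 9 genes is listed in the table of adult bone marrow HSCs, but Junos is. It reached 1 in 7 of 25 adult cells (28.0%, exact 95% interval 12.1 to 49.4%), was at most 28.6, in adult cell 10, and was listed at 0 in the other 18. That table names no unit and was not set against the T1 pre-HSC table.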
